A study of Mus musculus with 12 samples.

Results

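The genes described here encode chemokines, cytokines, colony-stimulating factors and a few of their receptors, measured by bulk RNA-seq in mouse endometrial epithelial organoids. They were taken by name from a list of 54 symbols, which was chosen with earlier results of these data known. Of these, 52 stand among the 26264 genes that the count files hold. The other two, Il36a and Il36g, stand there under the older symbols Il1f6 and Il1f9, and their values are given apart from the counts over the 52. The organoids were grown in a gel matrix from epithelium taken out of digested uteri. They came from wild-type (WT) mice or from mice with Esr1, the gene of estrogen receptor alpha, knocked out (KO), and all were at passage 3. Each genotype was kept without estrogen (untreated) or given estrogen (treated), which makes 4 groups of 3 libraries. Which exons are missing, whether the deletion is in the whole body, which of several postnatal ages named in the protocol the donor mice had, and the dose and duration of estrogen are not stated in the labels. They also do not say whether the replicates came from separate animals, so p-values measure the spread between these libraries, which may be technical. The labels' own treatment note states that neither genotype responded to estrogen.

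Chemokines are small secreted proteins that guide leukocytes along gradients through G protein-coupled receptors, and the CXC and CC families attract different leukocytes. Interleukins and tumor necrosis factor family members carry alarm and growth signals, and many are held in check by decoy receptors and antagonists. Colony-stimulating factors control the growth and survival of macrophages and granulocytes. In the uterus, the epithelium is a source of such factors, and CSF-1 made by uterine epithelial cells under ovarian hormones is a known signal to macrophages.

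Library totals ran from 75654191 to 108665407 counted reads. Levels are given as CPM, normalised read counts per 1000000 reads after TMM scaling, and levels of different genes are not compared since no transcript lengths were used. Esr1 checked the labels at 253 to 352 CPM over the 6 WT and 15.9 to 20.3 CPM over the 6 KO libraries. Epithelial markers such as Epcam and Cdh1 were present in every library, with a summed level of 8 markers of 4595 to 5635 CPM in WT and 4098 to 5329 CPM in KO. Of the homeobox genes that pattern the uterus, Hoxa10 had 8 and Hoxa11 had 10 reads over the 12 libraries. Genes of other epithelial types differed between the genotypes beside all results below: the basal cell keratin Krt5 ran from 0.0127 to 0.203 CPM in WT and from 2754 to 6715 CPM in KO, the basal cell factor Trp63 from 1.53 to 3.49 and 61.2 to 155 CPM, and the ciliated cell factor Foxj1 from 0 to 0.194 and 279.5 to 496 CPM. The part of this difference in the results on chemokines and cytokines was not tested. In bulk RNA, fewer cells of a type and less RNA per cell cannot be told apart.

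KO organoids held more mRNA of most of these genes than WT organoids and much less of a smaller set led by Csf1, Csf1r and Ptprc. All 52 genes had reads in some library, and 45 passed the filter on low counts. A gene was called when edgeR passed it at an adjusted p under 0.05 in both treatments with the same sign, which held for 64.9% of all 16465 genes tested, with 34.1% higher and 30.8% lower in KO. Of the 45 genes, 27 (60.0%) were higher and 12 (26.7%) were lower in KO. Both treatments differed by 2-fold or more in 23 of the higher and 10 of the lower genes. The share of all genes tested at this cut was not determined, so these counts have no comparison. The 6 KO libraries all lay above the 6 WT libraries in 25 genes and all below in 10, which is 77.8% of the 45 against 65.0% of all genes tested. The median log2 fold change of the 45 was 1.31 without and 1.42 with estrogen, beside 0.039 and 0.020 over all genes tested. With library size as the scaling, the all-gene median shifted by 0.226 and 0.185, and no direction of a called gene turned under it. Cxcr4, Il6, Il11, Il17rc, Il23a and Tnfsf13b were not called, and Ccl7, Ccl11, Ccl17, Ccl22, Cxcl12, Ccr6 and Il20 had too few reads to be tested. A further 156 genes of the same pathways were also listed with earlier results known. Of these, 95 could be tested, 48 of them higher and 22 lower in KO.

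**Figure D1:**
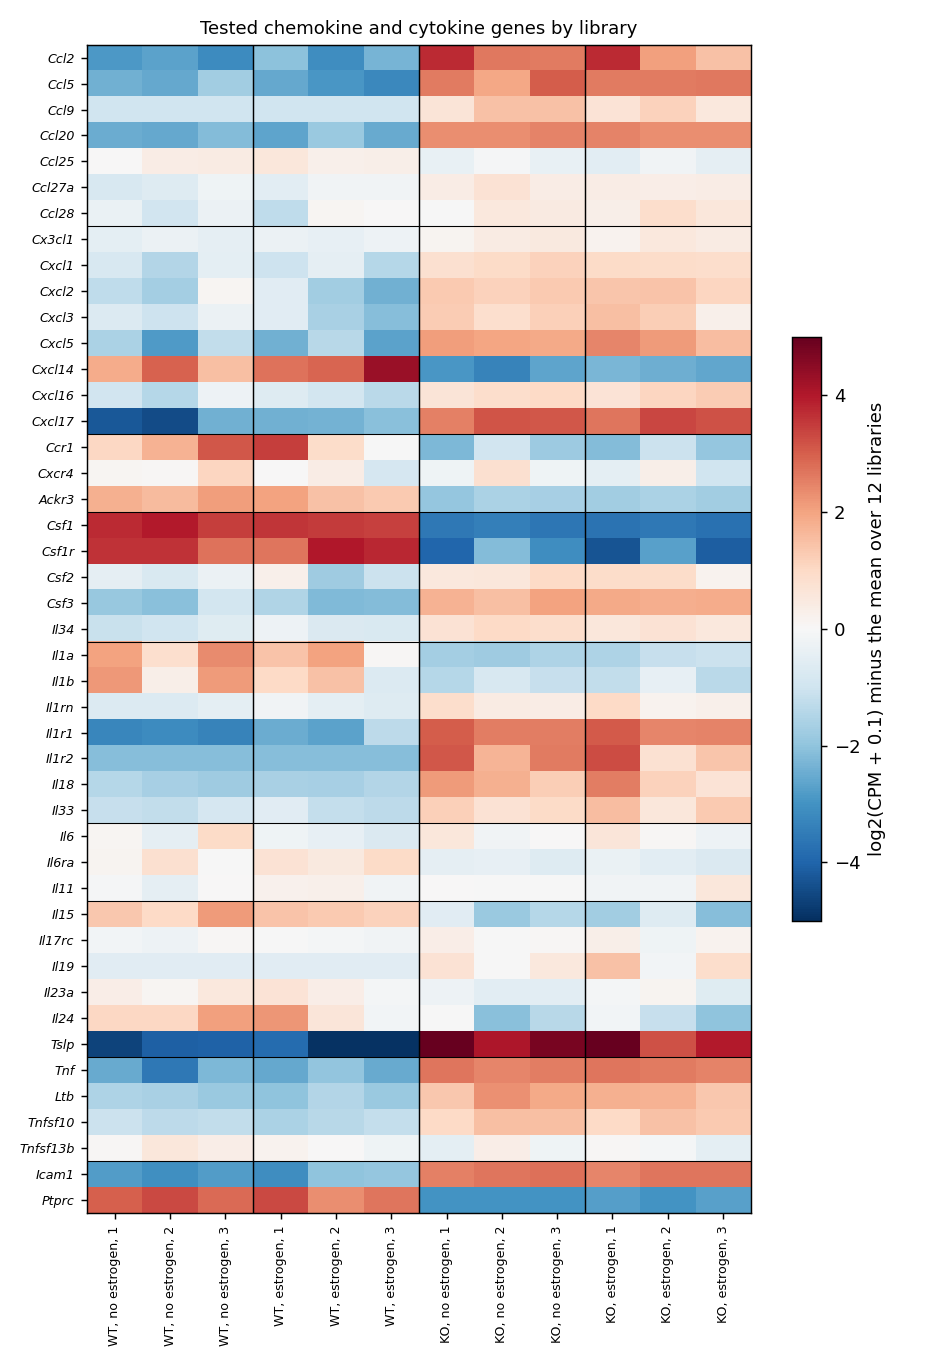
Level of the 45 tested genes in each of the 12 libraries, as log2(CPM + 0.1) minus the mean over the libraries (red above, blue below; the color scale ends at 5 on both sides), with genes in rows grouped by role. For most rows the color changes between the 6 WT libraries at left and the 6 KO libraries at right.

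**Figure D2:**
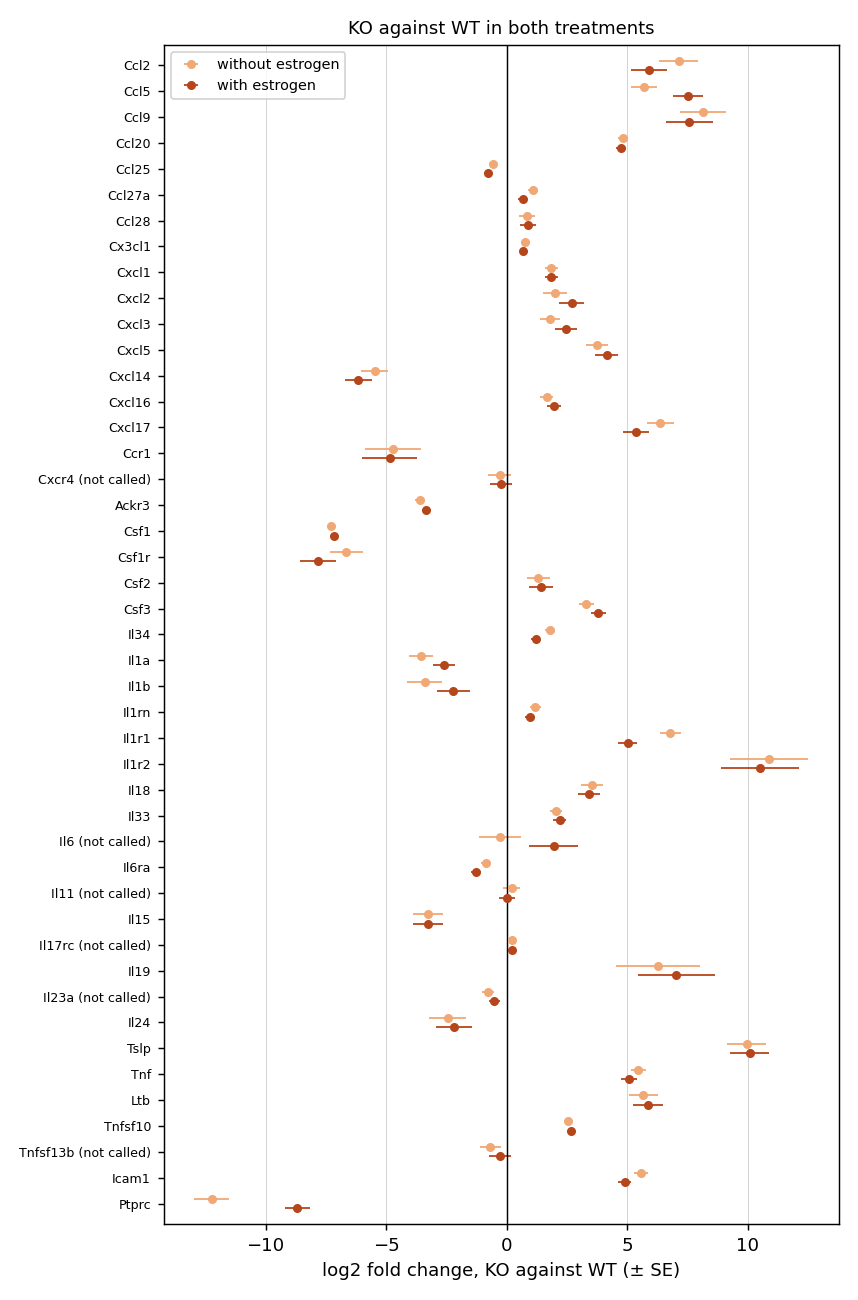
Log2 fold change of KO against WT for the 45 tested genes, without (light) and with estrogen (dark). Bars are SE and the vertical line marks no difference. Points of both treatments lie on the same side for all genes called; those of Ccl9, Il1r2, Il19 and Ptprc are fitted against groups with 0 reads.

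CC chemokines, which mainly attract monocytes and lymphocytes, were higher in KO for 6 of the 7 that could be tested, and Ccl25 was lower. Ccl2, the main attractant of monocytes, was read at 0.0765, 0.101 and 0.0463 CPM in WT and 16.7, 7.91 and 7.57 CPM in KO when untreated, and at 0.206, 0.0484 and 0.158 CPM in WT and 16.7, 5.13 and 3.40 CPM in KO when treated. All KO libraries stood above all WT libraries, and replicate 1 of KO was highest in both treatments. Ccl2 gave log2 fold changes of 7.13 ± 0.800 untreated (SE; edgeR adjusted p = 1.25e-05) and 5.90 ± 0.737 treated (edgeR adjusted p = 3.07e-05). For Ccl2, leaving out treated KO replicate 1 moved the treated log2 fold change to 4.92. Ccl5, an attractant of T cells and monocytes, was at 0.0765, 0.0607 and 0.185 CPM in WT and 5.64, 3.47 and 7.61 CPM in KO when untreated, and at 0.0617, 0.0242 and 0 CPM in WT and 5.63, 5.55 and 5.77 CPM in KO when treated. The genotypes did not overlap, and treated WT replicate 3 held no read of it. Ccl5 had log2 fold changes of 5.69 ± 0.532 untreated (SE; edgeR adjusted p = 2.65e-06) and 7.52 ± 0.618 treated (edgeR adjusted p = 1.07e-06). For Ccl5, leaving out untreated WT replicate 3 moved the untreated log2 fold change to 6.33 and leaving out treated WT replicate 1 moved the treated log2 fold change to 8.76. Ccl9, a rodent chemokine that binds Ccr1, was at 0 in all 3 libraries in WT and 0.216, 0.457 and 0.450 CPM in KO when untreated, and at 0 in all 3 libraries in WT and 0.224, 0.343 and 0.190 CPM in KO when treated. Every KO library held reads of Ccl9 and no WT library did, so that KO was at least 33.2-fold higher untreated and 22.6-fold or more treated, against a floor of 3 reads over the WT group, with the reads of each group pooled for this and the bounds below. Both mates of a fragment can be counted as reads, so all these bounds may be too high. For Ccl9 the edgeR adjusted p was 0.000176 untreated and 0.000315 treated.

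Ccl20, which draws Ccr6-bearing lymphocytes and dendritic cells to epithelia, was at 2.40, 2.26 and 3.01 CPM in WT and 69.2, 69.1 and 77.9 CPM in KO when untreated, and at 2.12, 3.72 and 2.32 CPM in WT and 78.0, 69.4 and 69.1 CPM in KO when treated. The 6 KO libraries lay close together and far above WT. Ccl20 changed by 4.82 ± 0.206 untreated (SE; edgeR adjusted p = 1e-08) and 4.73 ± 0.205 treated (edgeR adjusted p = 1.25e-08) on the log2 scale. Smaller rises were seen in Ccl27a and Ccl28, ligands of Ccr10 that are made by skin and mucosal epithelia. Ccl27a, whose span overlaps Il11ra1, rose, with 3.64 ± 0.541 CPM in KO and 1.73 ± 0.392 in WT untreated, 3.31 ± 0.0507 and 2.10 ± 0.311 treated (SD, n = 3 here and below). Ccl28 stood at 153 ± 29.3 CPM in KO and 86.1 ± 20.5 in WT untreated, 184 ± 38.3 and 99.6 ± 43.2 treated, its genotypes did not overlap within a treatment but treated WT replicates 2 and 3 lay above untreated KO replicate 1, and its call did not hold without single libraries. The larger edgeR adjusted p of both treatments for Ccl28 was 0.0592 without untreated WT replicate 1, 0.136 without untreated WT replicate 2, 0.0559 without treated WT replicate 1, 0.111 without untreated KO replicate 2, 0.0928 without untreated KO replicate 3, 0.102 without treated KO replicate 2 and 0.0506 without treated KO replicate 3, which ended the call each time. Without a low-count filter its edgeR adjusted p untreated was 0.0598. Ccl25, the ligand of Ccr9, was lower in all KO libraries, at 3.48 ± 0.429 CPM in KO and 5.14 ± 0.716 in WT untreated, 3.22 ± 0.396 and 5.51 ± 0.648 treated. With library-size scaling the untreated difference of Ccl25 did not pass (edgeR adjusted p = 0.109).

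The 4 other CC chemokines were near the detection limit. Ccl7, a monocyte attractant, had 4 and 10 reads in WT and 26 and 28 reads in KO, untreated and treated. Without treated WT replicate 3 Ccl7 passed the filter on low counts and was called. Ccl11, an eosinophil attractant, was at 0 in all 3 libraries in WT and 0, 0.0685 and 0.0901 CPM in KO when untreated, and at 0, 0 and 0.0225 CPM in WT and 0, 0.0180 and 0.0190 CPM in KO when treated. Reads of Ccl11 were absent from replicate 1 of KO in both treatments, as from 5 of the 6 WT libraries. With 0 and 2 reads in WT and 14 and 4 reads in KO, untreated and treated, the pooled level was at least 4.74-fold higher in untreated KO, or 3.09-fold without replicate 3, and had a KO to WT ratio of 1.62 when treated (exact 95% counting interval 0.232 to 17.9). Ccl17, a ligand of Ccr4, had 3 and 12 reads in WT and 15 and 7 reads in KO, untreated and treated. Ccl22, which binds the same receptor, had 0 and 3 reads in WT and 8 and 1 reads in KO, untreated and treated. Of 17 further chemokine ligands 6 could be tested. Ccl6, which lies next to Ccl9 in the genome, was higher at 16.1 ± 4.36 CPM in KO and 0.0800 ± 0.0719 in WT untreated, 14.0 ± 3.36 and 0.208 ± 0.191 treated, and so was Cxcl15, an epithelial chemokine known from the lung, at 22.5 ± 6.95 CPM in KO and 0.0631 ± 0.0380 in WT untreated, 24.3 ± 1.08 and 0.0414 ± 0.00933 treated.

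CXC chemokines and Cx3cl1 were higher in KO for 7 of 8 tested, among them all neutrophil attractants on the list, and Cxcl14 was lower. Cxcl1, Cxcl2 and Cxcl3, close relatives that act on neutrophils through Cxcr2, sit in a row with Cxcl5 and moved the same way. Their promoters are shown because the genes rose together and because the letters of the NF-κB consensus site were found at similar places in all 3. The 150 bases before each start are printed 5′ to 3′ on the gene's strand, from RefSeq on build GRCm38.p6, with matches of that consensus in capitals. Ccl20 is added as a rising gene from the other chemokine family.
Cxcl1 (chr5:90891095-90891244, + strand): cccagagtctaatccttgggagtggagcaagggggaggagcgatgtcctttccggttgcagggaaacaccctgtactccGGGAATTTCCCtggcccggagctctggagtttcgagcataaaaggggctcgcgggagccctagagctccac
Cxcl2 (chr5:90903749-90903898, + strand): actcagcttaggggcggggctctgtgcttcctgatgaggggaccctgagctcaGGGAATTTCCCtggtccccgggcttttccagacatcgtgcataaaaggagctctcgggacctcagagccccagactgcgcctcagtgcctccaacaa
Cxcl3 (chr5:90785951-90786100, + strand): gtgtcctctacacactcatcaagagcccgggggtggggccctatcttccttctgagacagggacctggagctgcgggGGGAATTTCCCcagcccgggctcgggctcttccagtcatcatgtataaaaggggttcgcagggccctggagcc
Ccl20 (chr1:83116616-83116765, + strand): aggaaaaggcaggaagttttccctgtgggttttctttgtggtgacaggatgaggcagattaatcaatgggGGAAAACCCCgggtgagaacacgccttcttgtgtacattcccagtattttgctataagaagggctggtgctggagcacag
In Cxcl1, Cxcl2 and Cxcl3 the capitals hold 2 matches offset by 1 base, the first of which begins 71, 97 and 73 bases before the start. In Ccl20 a single match begins 80 bases before the start. The consensus was searched on both strands of the 250 bases before each start. Of the 52 genes, 38 had a promoter in the table, and 12 of these held a match, against 7.25% of 32851 promoters. By call the matches fell in 8 of 19 higher, 2 of 9 lower, 1 of 5 not called and 1 of 5 not tested genes. The 38 include genes with several starts, and a gene was counted if any of its starts held a match, whereas the 7.25% is per promoter. Higher genes without a match include Tnf, Icam1, Il18 and Il1r2, and the lower genes with a match are Csf1 and Ccr1. A match of letters does not show that a factor binds.

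Cxcl5 was at 32.9, 13.5 and 41.8 CPM in WT and 421, 385 and 363 CPM in KO when untreated, and at 18.5, 37.0 and 15.2 CPM in WT and 529, 429.7 and 286 CPM in KO when treated. WT and KO did not overlap, although WT libraries of a group differed among themselves. Cxcl5 rose by 3.73 ± 0.455 untreated (SE; edgeR adjusted p = 2.54e-05) and 4.14 ± 0.464 treated (edgeR adjusted p = 1.41e-05) on the log2 scale. Cxcl1 rose, with 59.5 ± 7.24 CPM in KO and 16.5 ± 5.42 in WT untreated, 57.3 ± 1.21 and 16.0 ± 5.62 treated. Cxcl2 was higher too, with 50.3 ± 2.80 CPM in KO and 12.6 ± 8.69 in WT untreated, 52.2 ± 6.83 and 8.08 ± 5.31 treated, and so was Cxcl3, with 7.76 ± 1.22 CPM in KO and 2.23 ± 0.602 in WT untreated, 7.66 ± 3.13 and 1.39 ± 0.841 treated. Log2 fold changes of Cxcl2 were 2.0 untreated (edgeR adjusted p = 0.00378) and 2.69 treated (edgeR adjusted p = 0.000679). For Cxcl2, leaving out untreated WT replicate 3 moved the untreated log2 fold change to 2.73 and leaving out treated WT replicate 1 moved the treated log2 fold change to 3.36. For Cxcl3, leaving out treated WT replicate 1 moved the treated log2 fold change to 3.07. Reads that fit several of these related genes were not counted, so their levels may be too low. Ppbp and Pf4, platelet chemokines that lie between Cxcl5 and Cxcl3, went the other way, with Ppbp at 1.03 ± 0.387 CPM in KO and 12.3 ± 5.29 in WT untreated, 1.09 ± 0.509 and 12.2 ± 6.53 treated and Pf4 at 0.198 ± 0.109 CPM in KO and 1.13 ± 0.447 in WT untreated, 0.199 ± 0.0963 and 1.30 ± 0.264 treated.

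Cxcl17, a chemokine of mucosal epithelia, was at 2.59, 2.23 and 9.63 CPM in WT and 297, 453 and 436 CPM in KO when untreated, and at 9.70, 9.89 and 12.0 CPM in WT and 327, 514 and 466 CPM in KO when treated. Untreated WT replicate 3 was higher than the other two untreated WT libraries and close to the treated ones, and all WT libraries lay far below KO. Cxcl17 gave log2 fold changes of 6.36 ± 0.561 untreated (SE; edgeR adjusted p = 2.01e-06) and 5.37 ± 0.533 treated (edgeR adjusted p = 5.47e-06). For Cxcl17, leaving out untreated WT replicate 3 moved the untreated log2 fold change to 7.36. Cxcl14, an epithelial chemokine, was the exception at 13.6, 28.9 and 10.8 CPM in WT and 0.409, 0.274 and 0.507 CPM in KO when untreated, and at 24.9, 28.6 and 75.7 CPM in WT and 0.688, 0.595 and 0.532 CPM in KO when treated. Every KO library fell below every WT library, and treated WT replicate 3 was the highest. Cxcl14 changed by -5.48 ± 0.572 untreated (SE; edgeR adjusted p = 7.42e-06) and -6.15 ± 0.568 treated (edgeR adjusted p = 3.14e-06) on the log2 scale. For Cxcl14, leaving out treated WT replicate 3 moved the treated log2 fold change to -5.46. Cxcl16 and Cx3cl1, both made as membrane-bound forms that can be shed, rose, with 135 ± 16.4 CPM in KO and 43.0 ± 18.2 in WT untreated, 153 ± 28.9 and 39.0 ± 9.24 treated for Cxcl16 and 92.3 ± 11.5 CPM in KO and 55.2 ± 3.98 in WT untreated, 94.7 ± 11.6 and 58.8 ± 3.52 treated for Cx3cl1. Cxcl12, the ligand of Cxcr4 that is mostly made by stroma, was at 0 in all 3 libraries in WT and 0.0240, 0 and 0 CPM in KO when untreated, and at 0.0206, 0 and 0.0225 CPM in WT and 0.0688, 0 and 0.114 CPM in KO when treated. These are 0 and 4 reads in WT and 2 and 20 reads in KO, untreated and treated, and the genotypes overlapped.

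No chemokine receptor on the list was called higher in KO. Ackr3, a scavenging receptor for Cxcl12, was at 79.5, 68.9 and 98.3 CPM in WT and 5.85, 7.53 and 7.12 CPM in KO when untreated, and at 91.9, 64.3 and 57.4 CPM in WT and 6.85, 7.63 and 6.80 CPM in KO when treated. KO libraries were all below WT libraries, with little spread in KO. Ackr3 fell with log2 fold changes of -3.59 ± 0.198 untreated (SE; edgeR adjusted p = 5.36e-08) and -3.33 ± 0.195 treated (edgeR adjusted p = 9.51e-08). Ccr1, a receptor of Ccl5, Ccl7 and Ccl9, was at 1.11, 1.90 and 4.98 CPM in WT and 0.0240, 0.206 and 0.0676 CPM in KO when untreated, and at 6.46, 1.02 and 0.496 CPM in WT and 0.0344, 0.180 and 0.0570 CPM in KO when treated. WT libraries differed by more than 10-fold, with untreated replicate 3 and treated replicate 1 highest, and all were above KO. Ccr1 had log2 fold changes of -4.72 ± 1.15 untreated (SE; edgeR adjusted p = 0.00348) and -4.86 ± 1.14 treated (edgeR adjusted p = 0.00283). For Ccr1, leaving out untreated WT replicate 3 moved the untreated log2 fold change to -3.90, leaving out untreated KO replicate 2 moved the untreated log2 fold change to -5.80, leaving out treated WT replicate 1 moved the treated log2 fold change to -3.04 and leaving out treated KO replicate 2 moved the treated log2 fold change to -5.84. Cxcr4 stood at 2.55 ± 1.15 CPM in KO and 3.11 ± 1.38 in WT untreated, 1.76 ± 0.866 and 2.08 ± 0.860 treated and did not pass, with log2 fold changes of -0.29 untreated (edgeR adjusted p = 0.593) and -0.24 treated (edgeR adjusted p = 0.659). Ccr6, the receptor of Ccl20, had 3 reads over all 12 libraries. Of 19 further receptors 8 could be tested, 3 of them higher and 2 lower in KO. Ccr2, the receptor of Ccl2, which lies near Ccr1 in the genome, was higher at 6.52 ± 4.36 CPM untreated and 7.67 ± 7.39 CPM treated in KO, against 2 reads in each WT group. KO replicate 1 was the highest for Ccr2, at 11.1 CPM untreated and 16.2 CPM treated. Ackr4, a scavenger of CC chemokines, was higher at 2.10 ± 0.706 CPM in KO and 0.136 ± 0.0542 in WT untreated, 1.89 ± 0.543 and 0.0947 ± 0.0427 treated. Cxcr3, the receptor of interferon-induced chemokines, was lower, with 0.123 to 1.23 CPM in WT libraries against 0 reads in untreated and 2 in treated KO, and Cxcr5 was lower at 0.104 ± 0.0326 CPM in KO and 0.743 ± 0.154 in WT untreated, 0.0964 ± 0.0217 and 1.06 ± 0.262 treated.

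**Figure D3:**
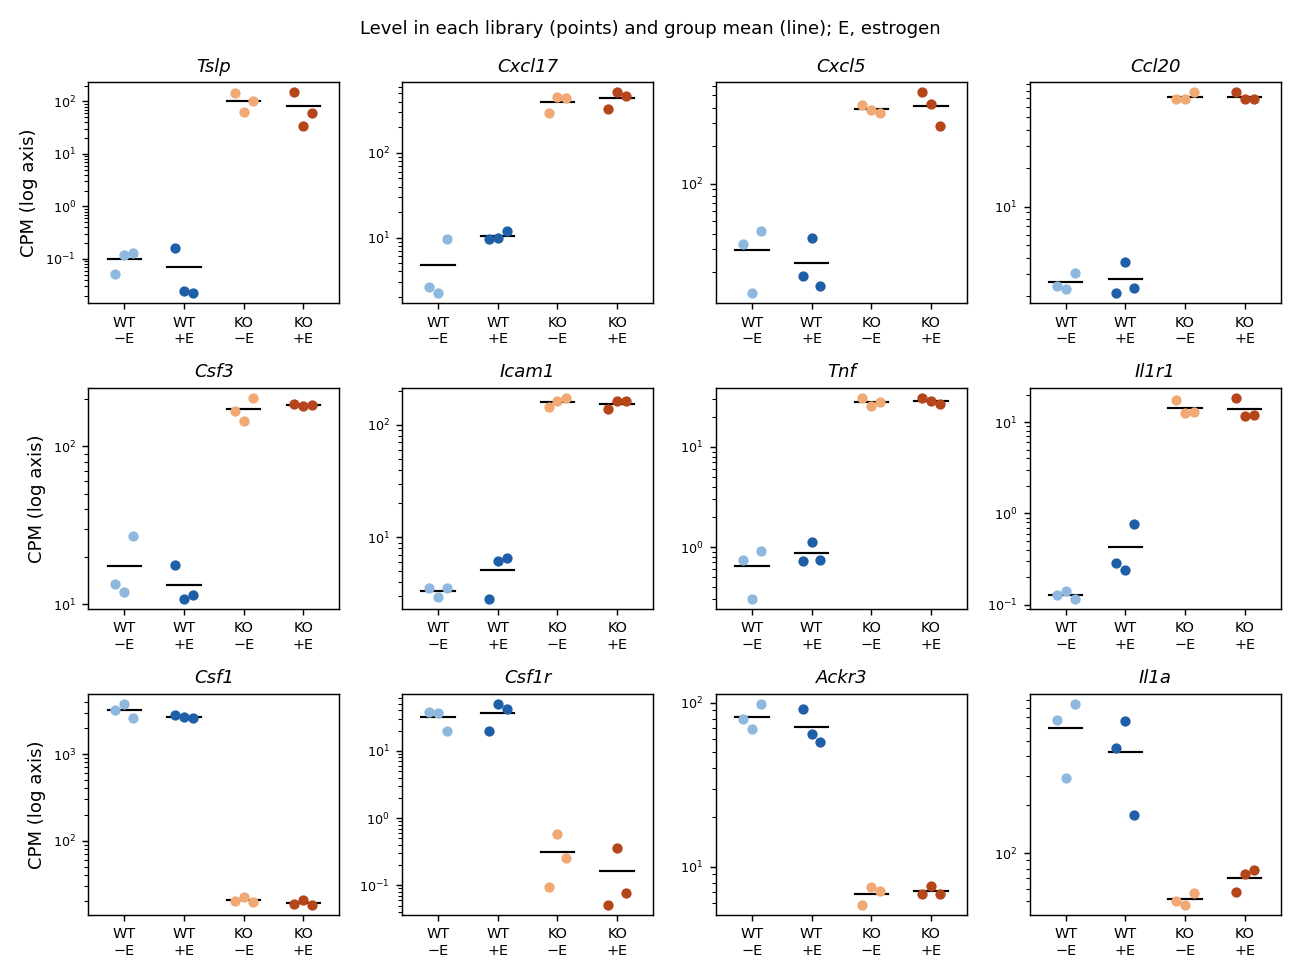
CPM of 12 genes in each library (points, log axis) with group means (lines), for WT and KO without (−E) and with estrogen (+E). WT and KO points are apart in all 12 panels; Csf1, Csf1r, Ackr3 and Il1a are high in WT and the other 8 in KO.

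Of the colony-stimulating factor genes, Csf1 and Csf1r were lower and Il34, Csf2 and Csf3 were higher in KO. Csf1, the main growth factor of macrophages, was at 3239, 3759.9 and 2612 CPM in WT and 20.1, 22.3 and 19.4 CPM in KO when untreated, and at 2851, 2691 and 2596 CPM in WT and 18.4, 20.4 and 18.1 CPM in KO when treated. The 6 KO libraries lay within a narrow range far below WT. Csf1 gave log2 fold changes of -7.28 ± 0.166 untreated (SE; edgeR adjusted p = 3.28e-10) and -7.16 ± 0.165 treated (edgeR adjusted p = 4.3e-10). Csf1r, its receptor, was at 37.6, 36.7 and 19.7 CPM in WT and 0.0962, 0.571 and 0.259 CPM in KO when untreated, and at 19.6, 49.2 and 42.0 CPM in WT and 0.0516, 0.361 and 0.0760 CPM in KO when treated. KO values were all below WT values, and replicate 2 was the highest of KO in both treatments. Csf1r changed by -6.65 ± 0.697 untreated (SE; edgeR adjusted p = 7.62e-06) and -7.82 ± 0.739 treated (edgeR adjusted p = 3.77e-06) on the log2 scale. For Csf1r, leaving out untreated KO replicate 2 moved the untreated log2 fold change to -7.44 and leaving out treated KO replicate 2 moved the treated log2 fold change to -9.16. Il34, the second ligand of this receptor, was higher at 7.39 ± 0.650 CPM in KO and 2.14 ± 0.430 in WT untreated, 6.22 ± 0.496 and 2.69 ± 0.538 treated, with log2 fold changes of 1.79 untreated (edgeR adjusted p = 6.82e-06) and 1.21 treated (edgeR adjusted p = 0.000133).

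Csf3, the growth factor of neutrophils, was at 13.5, 11.9 and 27.0 CPM in WT and 169, 145 and 202 CPM in KO when untreated, and at 17.6, 10.8 and 11.4 CPM in WT and 187, 179.5 and 183 CPM in KO when treated. All KO libraries lay above WT, where untreated replicate 3 was the highest. Csf3 gave log2 fold changes of 3.30 ± 0.309 untreated (SE; edgeR adjusted p = 3.22e-06) and 3.79 ± 0.317 treated (edgeR adjusted p = 1.47e-06). Csf2, which acts on granulocytes and macrophages, was at 0.956, 0.738 and 1.07 CPM in WT and 1.98, 2.04 and 2.80 CPM in KO when untreated, and at 1.61, 0.315 and 0.586 CPM in WT and 2.61, 2.61 and 1.53 CPM in KO when treated. The genotypes overlapped, with treated WT replicate 1 above treated KO replicate 3. Csf2 passed in both treatments with log2 fold changes of 1.31 untreated (edgeR adjusted p = 0.0292) and 1.42 treated (edgeR adjusted p = 0.0207). For Csf2, leaving out treated WT replicate 1 moved the treated log2 fold change to 2.31. The larger edgeR adjusted p of both treatments for Csf2 was 0.0644 without untreated WT replicate 1, 0.0901 without untreated WT replicate 2, 0.0528 without treated WT replicate 2, 0.0731 without treated WT replicate 3, 0.0886 without untreated KO replicate 3, 0.0539 without treated KO replicate 1 and 0.0557 without treated KO replicate 2, which ended the call each time. Among receptors, Csf3r had 0 reads in all 12 libraries, Csf2ra was lower at 7.40 ± 0.229 CPM in KO and 11.1 ± 1.44 in WT untreated, 7.14 ± 0.218 and 10.9 ± 0.569 treated, and so was Il3ra, the IL-3 receptor, at 15.5 ± 2.13 CPM in KO and 28.2 ± 6.16 in WT untreated, 14.3 ± 2.55 and 23.5 ± 4.97 treated. Csf2rb2, a chain of that receptor, was higher, with 0 and 2 reads in WT and 165 and 183 reads in KO, untreated and treated. Kit, the receptor of stem cell factor, was higher at 15.8 ± 0.968 CPM in KO and 0.638 ± 0.414 in WT untreated, 17.7 ± 4.10 and 0.502 ± 0.128 treated.

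Of the 7 interleukin-1 family genes tested, the agonists Il1a and Il1b were lower in KO. The agonists Il18 and Il33, the receptors Il1r1 and Il1r2 and the antagonist Il1rn were higher. Il1a was at 670.3, 293 and 842 CPM in WT and 50.7, 47.7 and 56.1 CPM in KO when untreated, and at 447, 663 and 173 CPM in WT and 57.0, 74.2 and 79.0 CPM in KO when treated. Treated WT replicate 3 was the lowest WT library and still above all of KO. Il1a changed by -3.55 ± 0.487 untreated (SE; edgeR adjusted p = 6.21e-05) and -2.61 ± 0.467 treated (edgeR adjusted p = 0.00046) on the log2 scale. Il1b was at 2.60, 0.627 and 2.47 CPM in WT and 0.120, 0.240 and 0.169 CPM in KO when untreated, and at 1.10, 1.56 and 0.270 CPM in WT and 0.155, 0.343 and 0.133 CPM in KO when treated. Treated WT replicate 3 lay within the KO range, and the gene overlaps an antisense transcript whose reads cannot be told apart. Il1b gave log2 fold changes of -3.41 ± 0.732 untreated (SE; edgeR adjusted p = 0.00149) and -2.21 ± 0.698 treated (edgeR adjusted p = 0.0147). The larger edgeR adjusted p of both treatments for Il1b was 0.0613 without treated WT replicate 2 and 0.0562 without treated KO replicate 3, which ended the call each time.

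Il1r1, the signalling receptor of IL-1, was at 0.127, 0.142 and 0.116 CPM in WT and 17.5, 12.7 and 12.8 CPM in KO when untreated, and at 0.288, 0.242 and 0.766 CPM in WT and 18.2, 11.8 and 12.0 CPM in KO when treated. KO libraries lay far above WT libraries, of which treated replicate 3 was the highest. Il1r1 rose by 6.79 ± 0.449 untreated (SE; edgeR adjusted p = 2.01e-07) and 5.02 ± 0.395 treated (edgeR adjusted p = 8.3e-07) on the log2 scale. For Il1r1, leaving out treated WT replicate 3 moved the treated log2 fold change to 5.71. Il1r2, the decoy receptor that binds IL-1 without signalling, was at 0 in all 3 libraries in WT and 3.64, 1.30 and 2.53 CPM in KO when untreated, and at 0 in all 3 libraries in WT and 4.13, 0.640 and 1.03 CPM in KO when treated. With no read in WT, KO stood at least 217-fold higher untreated and 178-fold or more treated, and the Il1r2 edgeR adjusted p was 0.000707 untreated and 0.000898 treated. Without treated KO replicate 1 this treated bound of Il1r2 was 74.5-fold. Il1rn, the antagonist that occupies Il1r1, rose, with 142 ± 29.8 CPM in KO and 62.8 ± 4.82 in WT untreated, 138 ± 47.6 and 71.1 ± 11.6 treated.

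Il18, a cytokine processed by caspase-1, was at 0.892, 0.738 and 0.672 CPM in WT and 11.6, 9.06 and 6.18 CPM in KO when untreated, and at 0.761, 0.738 and 0.868 CPM in WT and 15.3, 5.84 and 4.21 CPM in KO when treated. KO replicate 1 was highest in both treatments, and no KO library reached down to WT. Il18 gave log2 fold changes of 3.54 ± 0.458 untreated (SE; edgeR adjusted p = 3.69e-05) and 3.42 ± 0.455 treated (edgeR adjusted p = 4.81e-05), and its span overlaps Bco2 and Tex12. For Il18, leaving out treated KO replicate 1 moved the treated log2 fold change to 2.67. Il33, an alarmin stored in the nuclei of barrier cells, rose, with 71.9 ± 11.6 CPM in KO and 17.5 ± 2.67 in WT untreated, 83.7 ± 26.8 and 18.3 ± 5.38 treated. Il36a and Il36g, agonists of epithelial inflammation held under older symbols, rose, with 122 ± 33.2 CPM in KO and 17.9 ± 8.08 in WT untreated, 121 ± 59.3 and 14.3 ± 3.75 treated for Il36a and 249 ± 1.17 CPM in KO and 18.8 ± 2.93 in WT untreated, 263 ± 26.9 and 12.4 ± 2.32 treated for Il36g. Log2 fold changes of Il36g were 3.73 untreated (edgeR adjusted p = 7.4e-09) and 4.40 treated (edgeR adjusted p = 4.17e-09). Of 14 further genes of the family 11 were higher and 2 lower. Il18rap and Il1rl2, receptor chains for IL-18 and IL-36, stood at 12.6 ± 1.46 CPM in KO and 0.0519 ± 0.0233 in WT untreated, 11.3 ± 1.78 and 0.175 ± 0.143 treated for Il18rap and at 17.2 ± 1.42 CPM in KO and 0.0606 ± 0.0484 in WT untreated, 16.2 ± 3.15 and 0.259 ± 0.173 treated for Il1rl2. The inflammasome sensor Nlrp3 and the inhibitory receptor Sigirr were lower, Sigirr at 18.9 ± 1.21 CPM in KO and 39.2 ± 0.897 in WT untreated, 19.0 ± 1.92 and 35.9 ± 3.54 treated and Nlrp3 at 0.0777 ± 0.0498 CPM in KO and 0.272 ± 0.0174 in WT untreated, 0.0504 ± 0.0403 and 0.231 ± 0.123 treated.

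Some neighbouring genes shared a direction and others did not. In the gene order of RefSeq on build GRCm38, Il1r2, Il1r1, Il1rl2, Il1rl1, Il18r1 and Il18rap follow each other on chromosome 1, and all 6 were higher in KO. On chromosome 2, Il36b, Il36g, Il36a, Il36rn, Il1f10 and Il1rn follow each other, and all 6 were higher, while the pair Il1a and Il1b on the same chromosome was lower. On chromosome 17 Ltb and Tnf were higher, and their neighbour Lta was not called, at 0.147 ± 0.0981 CPM in KO and 0.0762 ± 0.0673 in WT untreated, 0.309 ± 0.170 and 0.0933 ± 0.0654 treated. Il24 and Il19 on chromosome 1, separated by Il20, went apart, with Il24 lower and Il19 higher. Neighbours were selected after their values were seen, and no test of their shared direction was made.

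**Figure D4:**
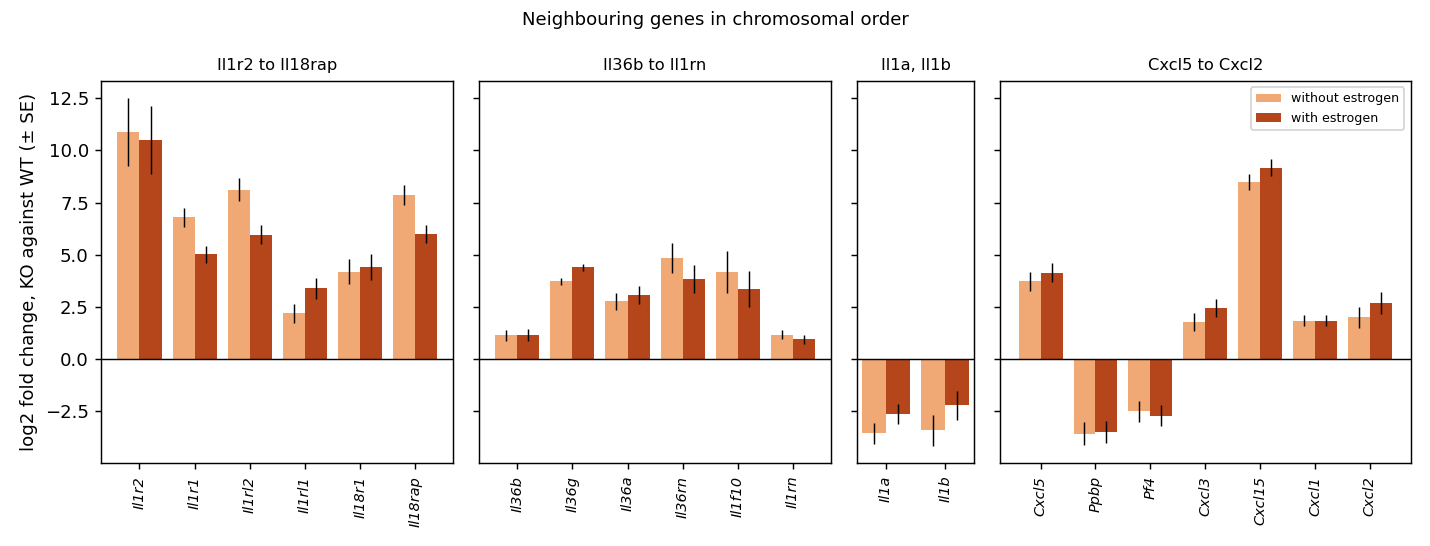
Log2 fold change of KO against WT (bars, with SE) for neighbouring genes in chromosomal order, without (light) and with estrogen (dark). All bars of both 6-gene rows point up; Il1a and Il1b point down, as do Ppbp and Pf4 between rising Cxcl genes. Fitted values of Il1r2 rest on 0 reads in WT.

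Of the IL-6 family, Il6 itself was barely read, with 27 and 6 reads in WT and 22 and 30 reads in KO, untreated and treated, and its log2 fold changes of -0.29 untreated (edgeR adjusted p = 0.778) and 1.94 treated (edgeR adjusted p = 0.114) did not pass and differed in sign. For Il6, leaving out untreated WT replicate 3 moved the untreated log2 fold change to 0.86, leaving out treated WT replicate 1 moved the treated log2 fold change to 2.79 and leaving out treated KO replicate 1 moved the treated log2 fold change to 1.27. Il11, a cytokine of stromal decidualization, stood at 0.343 ± 0.00538 CPM in KO and 0.300 ± 0.0680 in WT untreated, 0.383 ± 0.153 and 0.380 ± 0.0763 treated and did not pass. Il6ra, the IL-6 receptor, was lower at 4.80 ± 0.422 CPM in KO and 8.67 ± 2.72 in WT untreated, 4.71 ± 0.638 and 11.4 ± 1.90 treated, with log2 fold changes of -0.86 untreated (edgeR adjusted p = 0.00387) and -1.28 treated (edgeR adjusted p = 0.000271). Among 11 tested relatives 1 was higher and 3 were lower. Il6st, the signalling chain shared by the family, fell, with 112 ± 7.71 CPM in KO and 714 ± 164 in WT untreated, 135 ± 16.9 and 706 ± 64.4 treated. Lifr, the LIF receptor, fell as well, with 25.8 ± 3.18 CPM in KO and 493 ± 96.4 in WT untreated, 31.0 ± 4.02 and 383 ± 95.8 treated. Socs3, a feedback inhibitor of this pathway, rose, with 54.6 ± 4.43 CPM in KO and 33.8 ± 5.82 in WT untreated, 56.7 ± 4.19 and 26.8 ± 5.15 treated.

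Tslp, an epithelial cytokine that acts on dendritic cells, was at 0.0510, 0.121 and 0.127 CPM in WT and 143, 62.8 and 102 CPM in KO when untreated, and at 0.165, 0.0242 and 0.0225 CPM in WT and 149, 34.1 and 59.4 CPM in KO when treated. The genotypes were apart by more than 100-fold in every pair of libraries, and KO replicate 1 was the highest in both treatments. Tslp gave log2 fold changes of 9.95 ± 0.802 untreated (SE; edgeR adjusted p = 1.01e-06) and 10.07 ± 0.824 treated (edgeR adjusted p = 1.25e-06). For Tslp, leaving out treated WT replicate 1 moved the treated log2 fold change to 11.68 and leaving out treated KO replicate 1 moved the treated log2 fold change to 9.28. Its receptor chain Crlf2 was lower at 8.47 ± 0.387 CPM in KO and 14.1 ± 1.25 in WT untreated, 8.97 ± 0.708 and 15.2 ± 2.10 treated. Il15, a growth factor of NK cells, was at 1.64, 1.28 and 2.87 CPM in WT and 0.361, 0.0914 and 0.158 CPM in KO when untreated, and at 1.74, 1.62 and 1.43 CPM in WT and 0.103, 0.334 and 0.0570 CPM in KO when treated. All KO libraries were below WT. Il15 changed by -3.25 ± 0.621 untreated (SE; edgeR adjusted p = 0.000656) and -3.27 ± 0.620 treated (edgeR adjusted p = 0.000644) on the log2 scale. For Il15, leaving out untreated KO replicate 1 moved the untreated log2 fold change to -3.94 and leaving out treated KO replicate 2 moved the treated log2 fold change to -4.28. Its receptor chain Il15ra was higher, at 4.25 ± 0.392 CPM in KO and 1.34 ± 0.290 in WT untreated, 4.36 ± 0.403 and 1.69 ± 0.644 treated.

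Il19, Il20 and Il24 are IL-10 relatives that signal to epithelium through Il20rb. Il19 was at 0 in all 3 libraries in WT and 0.144, 0.0457 and 0.113 CPM in KO when untreated, and at 0 in all 3 libraries in WT and 0.310, 0.0361 and 0.171 CPM in KO when treated. Reads of Il19 were few but present in all KO libraries, at least 8.81-fold higher untreated and 15.6-fold or more treated, and the Il19 edgeR adjusted p was 0.0144 untreated and 0.00592 treated. Without treated KO replicate 1 the treated bound of Il19 was 9.11-fold. Il24 was at 6.46, 6.52 and 13.3 CPM in WT and 3.03, 0.663 and 1.11 CPM in KO when untreated, and at 14.8, 4.74 and 2.79 CPM in WT and 2.80, 1.35 and 0.703 CPM in KO when treated. The untreated genotypes did not overlap, treated KO replicate 1 lay just above treated WT replicate 3, and untreated WT replicate 3 and treated WT replicate 1 were far above the others. Il24 gave log2 fold changes of -2.45 ± 0.760 untreated (SE; edgeR adjusted p = 0.0133) and -2.20 ± 0.750 treated (edgeR adjusted p = 0.0215). For Il24, leaving out untreated KO replicate 1 moved the untreated log2 fold change to -3.30, leaving out treated WT replicate 1 moved the treated log2 fold change to -1.22 and leaving out treated KO replicate 1 moved the treated log2 fold change to -2.86. The larger edgeR adjusted p of both treatments for Il24 was 0.133 without treated WT replicate 1, 0.0502 without untreated KO replicate 3, 0.0657 without treated KO replicate 2 and 0.0761 without treated KO replicate 3, which ended the call each time. Il20 had 2 and 2 reads in WT and 0 and 0 reads in KO, untreated and treated. Il20rb was lower, at 7.12 ± 2.42 CPM in KO and 31.3 ± 7.18 in WT untreated, 8.91 ± 3.67 and 51.9 ± 24.7 treated.

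Il23a, the subunit specific to IL-23, gave log2 fold changes of -0.77 untreated (edgeR adjusted p = 0.0142) and -0.51 treated (edgeR adjusted p = 0.082), and was therefore not called. With library-size scaling Il23a did not pass untreated (edgeR adjusted p = 0.0762), and it was called lower in both treatments without treated WT replicate 3 (edgeR adjusted p = 0.0096 untreated and 0.0292 treated) and without treated KO replicate 2 (edgeR adjusted p = 0.0125 and 0.0396). Il17rc, a receptor chain for IL-17, stood at 49.0 ± 6.15 CPM in KO and 41.9 ± 4.42 in WT untreated, 48.5 ± 8.43 and 42.2 ± 2.10 treated and was not called, although with library-size scaling it passed in both treatments (edgeR adjusted p = 0.00883 untreated and 0.0211 treated). Il17c, an epithelial cytokine of that family, was higher at 1.13 ± 0.0576 CPM in KO and 0.0456 ± 0.0308 in WT untreated, 1.39 ± 0.271 and 0.0375 ± 0.0262 treated, and so was Il17d at 1.13 ± 0.111 CPM in KO and 0.211 ± 0.215 in WT untreated, 1.06 ± 0.381 and 0.299 ± 0.254 treated. Il17re, the receptor chain for IL-17C, was lower, at 29.3 ± 0.762 CPM in KO and 40.2 ± 11.1 in WT untreated, 28.4 ± 0.518 and 55.8 ± 12.0 treated, as was Il17rb, the receptor of IL-25, at 1.38 ± 0.347 CPM in KO and 4.33 ± 0.899 in WT untreated, 1.74 ± 0.445 and 5.66 ± 1.73 treated. Il2ra, a chain of the IL-2 receptor, was higher, with 0 and 0 reads in WT and 144 and 138 reads in KO, untreated and treated. Il2rg, the common gamma chain, was higher at 2.30 ± 0.710 CPM in KO and 0.0920 ± 0.0414 in WT untreated, 2.19 ± 1.06 and 0.0730 ± 0.0276 treated. Il16, a CD4 ligand, was lower at 0.497 ± 0.0448 CPM in KO and 2.86 ± 1.07 in WT untreated, 0.478 ± 0.123 and 2.03 ± 1.12 treated, and Il13ra1, an IL-13 receptor chain, at 97.7 ± 6.57 CPM in KO and 349 ± 27.8 in WT untreated, 108 ± 14.0 and 299.6 ± 56.7 treated.

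Of the tumor necrosis factor family, Tnf, Ltb and Tnfsf10 were higher in KO and Tnfsf13b was not called. Tnf, which activates NF-κB and inflammation, was at 0.739, 0.303 and 0.904 CPM in WT and 30.7, 25.9 and 28.2 CPM in KO when untreated, and at 0.720, 1.13 and 0.744 CPM in WT and 30.7, 28.9 and 26.9 CPM in KO when treated. KO libraries were close to each other and far above WT. Tnf rose by 5.46 ± 0.326 untreated (SE; edgeR adjusted p = 9.6e-08) and 5.07 ± 0.317 treated (edgeR adjusted p = 1.54e-07) on the log2 scale. Ltb, which anchors lymphotoxin at the cell surface, was at 0.0382, 0.0303 and 0.0116 CPM in WT and 0.926, 1.86 and 1.43 CPM in KO when untreated, and at 0, 0.0484 and 0.0113 CPM in WT and 1.29, 1.27 and 0.940 CPM in KO when treated. The WT groups held 7 and 5 reads in all, and all KO libraries were above them. Ltb gave log2 fold changes of 5.66 ± 0.604 untreated (SE; edgeR adjusted p = 7.58e-06) and 5.86 ± 0.630 treated (edgeR adjusted p = 8.82e-06). For Ltb, leaving out treated WT replicate 1 moved the treated log2 fold change to 5.25 and leaving out treated WT replicate 2 moved the treated log2 fold change to 7.44. Tnfsf10, the death ligand TRAIL, rose, with 89.0 ± 17.0 CPM in KO and 15.2 ± 1.29 in WT untreated, 84.9 ± 13.8 and 13.5 ± 1.85 treated. Tnfsf13b, a B cell survival factor, stood at 0.130 ± 0.0685 CPM in KO and 0.208 ± 0.0550 in WT untreated, 0.119 ± 0.0399 and 0.144 ± 0.0311 treated and did not pass. Of the receptors, Tnfrsf1a was not called, at 109 ± 3.68 CPM in KO and 116 ± 5.60 in WT untreated, 110.2 ± 7.26 and 124 ± 6.56 treated, Ltbr was lower at 78.9 ± 4.06 CPM in KO and 97.6 ± 2.43 in WT untreated, 78.0 ± 3.58 and 102 ± 1.41 treated, and the TRAIL receptor Tnfrsf10b was lower at 25.6 ± 2.07 CPM in KO and 49.7 ± 4.75 in WT untreated, 28.9 ± 5.05 and 49.9 ± 4.17 treated. Of 18 tested relatives 11 were higher and 3 lower, with Cd40, a costimulatory receptor, at 9.83 ± 1.23 CPM in KO and 0.293 ± 0.127 in WT untreated, 8.28 ± 0.961 and 0.267 ± 0.124 treated and Tnfsf18, the GITR ligand, at 0.762 ± 0.231 CPM in KO and 0.0209 ± 0.0267 in WT untreated, 1.03 ± 0.315 and 0.0137 ± 0.0237 treated. The WT values of Tnfsf18 rest on 5 reads untreated and 4 treated. Tnfrsf12a, the TWEAK receptor, was lower at 63.9 ± 13.2 CPM in KO and 129 ± 33.5 in WT untreated, 71.4 ± 15.0 and 134 ± 33.0 treated.

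Icam1, an adhesion molecule that leukocytes grip through integrins, was at 3.55, 2.93 and 3.57 CPM in WT and 144, 162 and 171 CPM in KO when untreated, and at 2.85, 6.16 and 6.51 CPM in WT and 139, 163 and 161 CPM in KO when treated. KO libraries lay within a narrow band far above WT. Icam1 gave log2 fold changes of 5.57 ± 0.282 untreated (SE; edgeR adjusted p = 2.98e-08) and 4.90 ± 0.272 treated (edgeR adjusted p = 6.73e-08). Of 13 other adhesion genes 10 could be tested, 7 were higher and none of the 10 was lower, among them Cd44, the hyaluronan receptor, at 167 ± 34.6 CPM in KO and 4.21 ± 1.93 in WT untreated, 181 ± 29.4 and 3.13 ± 2.94 treated, and the selectin ligand Selplg at 1.78 ± 0.484 CPM in KO and 0.0154 ± 0.0268 in WT untreated, 1.60 ± 0.428 and 0.0480 ± 0.0831 treated. The WT values of Selplg rest on 4 reads untreated and 14 treated, each from a single library.

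Ptprc, the phosphatase CD45 that marks leukocytes, was at 6.12, 7.66 and 5.45 CPM in WT and 0 in all 3 libraries in KO when untreated, and at 7.65, 3.87 and 4.87 CPM in WT and 0.0172, 0 and 0.0190 CPM in KO when treated. Every WT library held reads of it, while KO held 0 reads untreated and 4 treated, so that Ptprc was at least 560.3-fold lower in untreated KO by pooled reads. In treated KO the ratio of mean levels, 453-fold, rests on those 4 reads. For Ptprc the edgeR adjusted p was 5.07e-07 untreated and 7.27e-07 treated. Other leukocyte genes went both ways. Of 18 pan-leukocyte and myeloid markers 12 could be tested, 5 were higher in KO (Spi1, Coro1a, Itgax, Aif1 and Lyz2) and 1 was lower (Cd68). Their summed level was 574 to 1090 CPM over WT and 422 to 685 CPM over KO libraries, mostly Cd14 and Cd68. The defining macrophage genes C1qa, C1qb, C1qc and Fcgr1 had 4, 2, 2 and 2 reads in WT and 0 in KO, Adgre1 had 40 and 46 reads in WT and 14 and 6 reads in KO, untreated and treated, and the adaptor Tyrobp had 8 reads over all libraries. Itgax had 0 reads in WT. Of 14 lymphocyte markers 3 could be tested, with 1 higher, Gzma, and the summed level was 9.23 to 11.6 CPM over WT and 10.3 to 11.5 CPM over KO, with Cd3g, Cd8a and Gzmb at 0 in both. Of 8 neutrophil markers 4 could be tested and 2 were higher, Ltf and Mmp8, with sums of 1175 to 8062 and 12028 to 23533 CPM that are mostly Ltf, and Retnlg and Ngp were at 0 in both. Of 12 stromal markers 7 could be tested, 2 were higher (Vim and Nr2f2), Lum was at 0 in KO, and the sum was 16.0 to 20.4 CPM over WT and 38.5 to 45.0 CPM over KO, mostly Nr2f2. Col1a1, Col1a2, Col3a1 and Dcn had lower means in KO in both treatments but were not called. Pdgfra had higher means in KO and was not called either. Of 8 endothelial markers 4 could be tested, 3 were higher (Pecam1, Vwf and Egfl7) and 1 was lower (Cdh5), with sums of 4.17 to 7.32 and 9.61 to 11.03 CPM, and Emcn and Cldn5 were at 0 in both. The sum in KO was mostly Egfl7. Cdh5 stood at 2.02 and 1.25 CPM in WT and 0.0231 and 0.0355 CPM in KO, untreated and treated. The part of such cells in the levels of Ptprc, Csf1r and Ccr1 was not tested.

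Ligands and receptors were set side by side in 42 pairs of textbook partners, many of which share a member. In 25 pairs the ligand was higher in KO, with a receptor that was higher in 7, lower in 9, not called in 5 and not tested in 4. In 7 pairs the ligand was lower, with a receptor that was higher in 4, lower in 2 and not called in 1. Csf1 with Csf1r and Il24 with Il20rb fell together. Il18, Il33, Il36a, Il36g, Il1rn, Ccl2 and Icam1 rose with their partners Il18r1, Il1rl1, Il1rl2, Il1r1, Ccr2 and Itgal. Il1rl1 stood at 5.37 ± 0.992 CPM in KO and 1.17 ± 0.583 in WT untreated, 6.63 ± 2.66 and 0.623 ± 0.367 treated and Il18r1 at 52.3 ± 10.2 CPM in KO and 2.88 ± 2.39 in WT untreated, 50.9 ± 16.4 and 2.34 ± 1.53 treated. Cxcr2, the receptor of the rising neutrophil chemokines, stood at 1.38 ± 0.193 CPM in KO and 0.495 ± 0.420 in WT untreated, 1.43 ± 0.138 and 0.334 ± 0.335 treated and had edgeR adjusted p of 0.0635 untreated and 0.0169 treated.

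Replicates of a group differed in these genes by a larger median share of the mean than over all genes. The median coefficient of variation of the 45 genes was 29.2% in WT and 19.1% in KO when untreated and 33.5% and 26.2% when treated, beside 10.8%, 10.8%, 11.5% and 12.6% over all genes tested in the same order. Genes were not matched for read number, and few reads raise this coefficient. In treated WT it was 127% for Ltb with 5 reads and 109% for Ccl5 with 8, but also 124% for Ccr1 with 756. The part of low read numbers in the difference was not tested. Untreated WT replicate 3 was the highest of its group in 29 of the 42 genes with reads there (69.0%), against 36.8% of all genes tested. In 18 of 42 genes (42.9%) both untreated WT replicate 3 and treated WT replicate 1 were highest, among them Ccr1, Csf3, Cxcl2, Il24 and Il33, against 20.5% of all genes. In KO, replicate 1 was highest in both treatments in 14 of 44 genes (31.8%), against 24.8% of all genes, and these include Ccl2, Cxcl5, Il1r1, Il1r2, Il18, Il19, Il33, Tslp and Tnf. Other genes went the opposite way, such as Cxcl17 and Tnfsf10. Untreated and treated KO replicate 1 were the lowest of their groups for Cxcl17 (297 and 327 CPM) and Tnfsf10 (69.4 and 70.3 CPM). Krt5, Trp63 and Krt10, chosen after values were seen, were also highest in KO replicate 1, Krt5 at 6706, 3366 and 4944 CPM in untreated and 6715, 2754 and 5005 CPM in treated KO, and Krt10 at 127, 56.5 and 58.0 CPM and 157, 30.7 and 42.7 CPM. Foxj1 was highest in replicate 2. The part of these genes' cells in the spread was not tested.

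**Figure D5:**
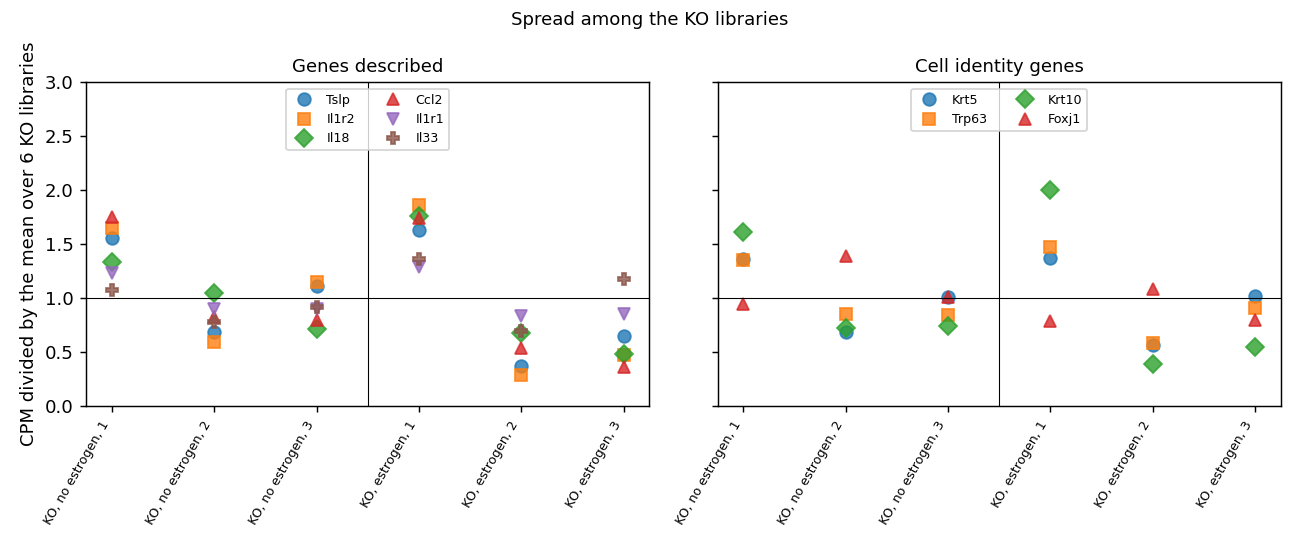
CPM in each KO library divided by the gene's mean over the 6 KO libraries, for 6 of the genes described (left) and for 4 cell identity genes (right). The 6 at left are all among the 14 genes with replicate 1 highest in both treatments, so their pattern follows from that choice. Replicate 1 stands above the mean in both treatments for all 6 genes at left and for Krt5, Trp63 and Krt10; Foxj1 is highest in replicate 2.

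Estrogen against none asks whether these genes respond to the hormone in either genotype. EdgeR called 0 of the 45 genes in WT, 0 in KO and 0 for the interaction of genotype and estrogen, where it also called 0% of all genes tested in each. At an unadjusted p under 0.05 stood 5 of the 45 genes in WT, 0 in KO and 2 for the interaction, and 883, 411 and 726 of the 16465 genes. DESeq2 called 1 of the genes in WT, 0 in KO and 0 for the interaction, and 63, 20 and 25 of all genes. The 5 in WT were Il1r1, Cxcl14, Cxcl17, Icam1 and Ccl5. Il1r1 had the smallest p, with a log2 difference of 1.74 (edgeR adjusted p = 0.617) in WT and -0.03 in KO, and an interaction of -1.77 (edgeR adjusted p = 0.974). It was the gene that DESeq2 called (DESeq2 adjusted p = 0.0285). Each treated WT library was above each untreated one for Il1r1, with levels of 0.242 to 0.766 against 0.116 to 0.142 CPM, and the KO libraries overlapped. Cxcl14 differed by 1.28, Cxcl17 by 1.13, Icam1 by 0.62 and Ccl5 by -1.81 on the log2 scale, with edgeR adjusted p of 0.838, 0.878, 0.849 and 0.883. Without treated WT replicate 1, whose Icam1 level of 2.85 CPM was below all untreated WT libraries, Icam1 passed in WT at 0.92 (edgeR adjusted p = 0.0122). A difference that did not pass does not show that the genes are insensitive to estrogen.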

How the data were processed

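Per the file headers, the authors deposited raw counts of reads per gene, made with featureCounts 2.0.0 (the submitters' processing notes name 2.0.3) over exons of a refGene annotation. Those notes also list STAR 2.7.10b beside Trim Galore 0.6.6 and FastQC 0.11.7, with GRCm39 as the build. The command in the file headers sets no option for pairs, strand or ambiguous reads, so mates were counted singly, strand was ignored, and reads that fit several places or genes were left out. Of the 52 genes, 22 overlap another gene by RefSeq on GRCm38, so opposite-strand reads can be included.

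Counts were filtered with filterByExpr (minimum count 10, minimum total 15), TMM-scaled and fitted with edgeR 4.0.16 under R 4.3.3 as 4 groups of 3 libraries, with quasi-likelihood tests and Benjamini-Hochberg adjustment over 16465 genes at 0.05, two-sided. The SE is the log2 fold change divided by the root of its F. CPM errors are SD (n = 3). A group with 0 reads was given a floor of 3 reads over its pooled libraries (the other group's reads were pooled likewise), 0.0114 CPM in WT and 0.0116 in KO untreated, and 0.0112 and 0.00902 treated. No molecular identifiers are stated, and both the floor and counting intervals account for counting error alone. They treat reads as independent, although both mates of a fragment can be counted. The bounds may therefore be too high and the intervals too narrow. The bounds also include no error of the other group's reads. Replicates differed beyond sampling noise (chi-square per degree of freedom 46.5 to 305.0).

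Members and lists were chosen with earlier results of these data known. Values in every library are given for called genes ranked by the smaller log2 fold change of both treatments, up to 15 higher and 10 lower, and for genes at 0 in a group. Of pathway relatives, up to 2 per direction and list were named by that rank, and others were named as partners or neighbours. Promoters and gene order came from RefSeq tables of GRCm38.p6. DESeq2 1.42.0 and other scalings, filters and blocks were alternatives.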

Additional observations from a re-analysis of the deposited data

How the results depend on the processing

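Over scaling by RLE or library size, other filters, DESeq2, a replicate block and leaving out each library, 25 to 28 genes were higher and 10 to 13 lower in KO, beside 27 and 12, and no fold change of a called gene turned. Of 1610 such fold changes, 24 lost and 5 gained their call. At a minimum of 1 CPM in 3 libraries Ccl9 and Il19 were not tested. With estrogen in WT, the genes called here numbered 1 with DESeq2 and 0 to 1 on leaving out a library. All genes called in WT numbered 63 with DESeq2, 7 with a replicate block within genotype and 0 to 54 on leaving out a library (1 without untreated replicate 3, 54 without treated replicate 1). In KO they numbered 20 with DESeq2 and 0 to 4 on leaving out a library (4 without untreated replicate 3). For the interaction they numbered 25, 4 with the block within genotype, and 0 to 6 (6 without treated WT replicate 1). Replicate numbers were checked for pairing: deviations of same-numbered libraries correlated at 0.57, 0.50 and 0.41 in KO, each the best match there, and at -0.16, -0.16 and -0.39 in WT, so the numbers were not taken as pairs. In WT the best matches had different numbers: untreated 1 with treated 2 (0.27), 2 with 3 (0.46) and 3 with 1 (0.40). The block within genotype joined same-numbered libraries, also in WT. Same-numbered KO libraries, and these matched WT libraries, may still not be independent of each other. A KO replicate that was highest in both treatments is therefore not a separate recurrence of a result. The same holds for untreated WT replicate 3 with treated WT replicate 1. With the replicate block 27 genes were higher and 12 lower, and 0 were called by estrogen. Depth limits Ccl7, Ccl11, Ccl17, Ccl22, Cxcl12, Ccr6, Il20 and Il6, whose reads were too few for a firm comparison.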
